A study of Mus musculus with 2 samples.

Results

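Klf2-low endocardial cells were 466 of the 11640 heart cells that the authors placed on their embedding, 153 of 5408 in the control library and 313 of 6232 in the H2CKO library. They were chosen by UMI counts alone: at least 1 UMI of 4 or more of the 6 endothelial genes Pecam1, Cdh5, Tie1, Emcn, Egfl7 and Esam, the 5 sarcomere genes Tnnt2, Myh6, Myh7, Actc1 and Myl7 under 2% of the cell's UMIs, Klf2 under 1000 CPM (a gene's UMIs scaled to 1000000 UMIs of the cell), and at least 1 UMI of Npr3 or Nfatc1. A UMI is a molecular identifier that marks a single captured transcript. Values of these 14 genes therefore describe the choice and are given without reading a difference from them. The cells made up 2.83% (95% Clopper-Pearson interval 2.40 to 3.31) of listed control cells and 5.02% (4.49 to 5.59) of listed H2CKO cells, where intervals here and below cover counting error only. With Nfatc1 required, these shares were closer, at 2.44% and 3.15%.

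The study dissociated whole mouse hearts at E11.5, in mid-gestation, and made 1 single-cell library per genotype with 10x Genomics 3′ chemistry. By its label, the Control carried 1 floxed Hand2 allele (Hand2fx/+), the R26RmTmG reporter over a wild-type allele and no Cre. H2CKO carried Nfatc1Cre/wt, 2 floxed alleles (Hand2fx/fx) and the same reporter, so the groups differ both in Cre and in the number of floxed alleles. Both came from Hand2fx/+ Nfatc1Cre fathers and Hand2fx/fx mothers with the reporter, and Cre status was read from embryo fluorescence. The reporter makes membrane Tomato until Cre acts and membrane GFP afterwards, and Nfatc1Cre is driven by a gene that is itself 1 of the 2 markers in the selection. No treatment was given, and how many embryos went into each library was not found in the labels, so every difference is between 2 libraries with no replicate check. The comparison asks how endocardial transcripts differ when Hand2, a basic helix-loop-helix transcription factor, is deleted in that lineage.

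The endocardium is the endothelium that lines the heart chambers. In the outflow tract and atrioventricular canal it secretes a hyaluronan- and versican-rich jelly and gives rise to the mesenchyme of the cushions, which later form valves. In the ventricle it signals to the muscle through Notch, neuregulin and endothelin and supplies part of the coronary vessels. Klf2 is a transcription factor raised by blood flow, Npr3 a clearance receptor for natriuretic peptides and Nfatc1 a calcineurin-dependent factor of valve endocardium.

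The markers used for the choice were present in both libraries, as the rule requires. Npr3 had a UMI in 118 control members (77.1%) and 236 H2CKO members (75.4%), and Nfatc1 in 132 (86.3%) and 196 (62.6%). Both were found together in 97 control members (63.4%) and 119 H2CKO members (38.0%). A single UMI of the pair carried the choice in 9 control members (5.88%) and 115 H2CKO members (36.7%), so membership rested on less evidence per cell in H2CKO. Just inside the Klf2 threshold, from 900 to 1000 CPM, lay 12 control and 5 H2CKO members. From 1000 to 1100 CPM, 12 control and 11 H2CKO cells with Npr3 or Nfatc1 were just outside it. All 12 other endothelial markers examined, among them Kdr, Tek, Flt1, Eng, Ramp2 and Erg, were found in at least 10% of the members of each library.

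Other cell types left different amounts of signal in the 2 sets of members. The 12 mesenchymal markers were all detected in both libraries and summed to 1467 CPM of all member UMIs in the control and 355 in H2CKO. Single cells ranged from 0 to 8259.5 and from 0 to 2757 CPM. At least 5 of these markers were found together in 51 control members (33.3%, 25.9 to 41.4) and 21 H2CKO members (6.71%, 4.20 to 10.07), with median depths of 32174 and 30330 UMIs. The 10 epicardial markers summed to 235 and 57.3 CPM, Msln and Sfrp5 being at 0 in H2CKO, and 26 control and 12 H2CKO members had 3 or more of them. The 10 cardiomyocyte markers, all detected, summed to 5506 and 3939 CPM, against 44545 and 42017 CPM in cardiomyocytes. Of the 10 white blood cell markers 5 were detected in the control and 9 in H2CKO, summing to 13.75 and 28.2 CPM, with highest cells at 672 and 2933 CPM. Ptprc was at 0 in both libraries, and C1qa, C1qb, C1qc and Cx3cr1 were at 0 in the control. The 12 erythroid markers summed to 3653 CPM in the control and 4858 in H2CKO. The 5 megakaryocyte markers summed to 190 and 30.5 CPM, and the 5 smooth muscle markers to 891 and 433 CPM. Counting also cells with at least 2 of 5 megakaryocyte or 2 of 10 white blood cell markers, 57 control members (37.3%) and 32 H2CKO members (10.2%) carried a second cell type's markers. Whether a marked barcode held 2 cells or 1 endocardial cell in the cushion transition cannot be told apart from these matrices, and their median depths were 29290 and 25696 UMIs against 13659.5 and 11568 in the other members. Scrublet scores rate how far a barcode resembles 2 mixed cells. Their highest 5% held 12 control and 37 H2CKO members, of which 11 and 20 were marked. Values of lists and of many single genes are also given without the marked cells, over 96 control and 281 H2CKO members. If they are cells in transition, those values leave out part of the endocardium in question. This alternative lowers the 12 mesenchymal and 10 epicardial markers by construction, and some of those are also cushion genes.

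Depth differed as well. The matrices held 195825720 and 201477256 UMIs over 14114 control and 13885 H2CKO barcodes. The members had medians of 16777 UMIs and 4503 genes in the control and 12320 UMIs and 3375 genes in H2CKO, with 3.73% and 5.17% mitochondrial UMIs, and together gave 3636348 and 5043226 UMIs. The matrices shared 57 barcodes, of which 15 were listed in both, and no barcode was a member in both. In UMIs summed over cells, a different mix of cells and a different level per cell cannot be told apart.

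Hand2 itself (ENSMUSG00000038193, chromosome 8, 57320983 to 57324633, plus strand, GRCm38) was measured first. Control members held 708 Hand2 UMIs, or 195 CPM (95% exact Poisson interval 181 to 210), and H2CKO members held 136 UMIs, or 26.97 CPM (22.6 to 31.9). The level was 7.22-fold lower in H2CKO (6.002 to 8.74), for a log2 ratio of −2.64 after 5 CPM was added to both values, as in all log2 ratios below. A Hand2 UMI was found in 139 control members (90.8%) and 77 H2CKO members (24.6%). With each cell thinned to 5000 UMIs, which left out 1 H2CKO member, these shares were 63.4% and 8.97%.

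**Figure D1:**
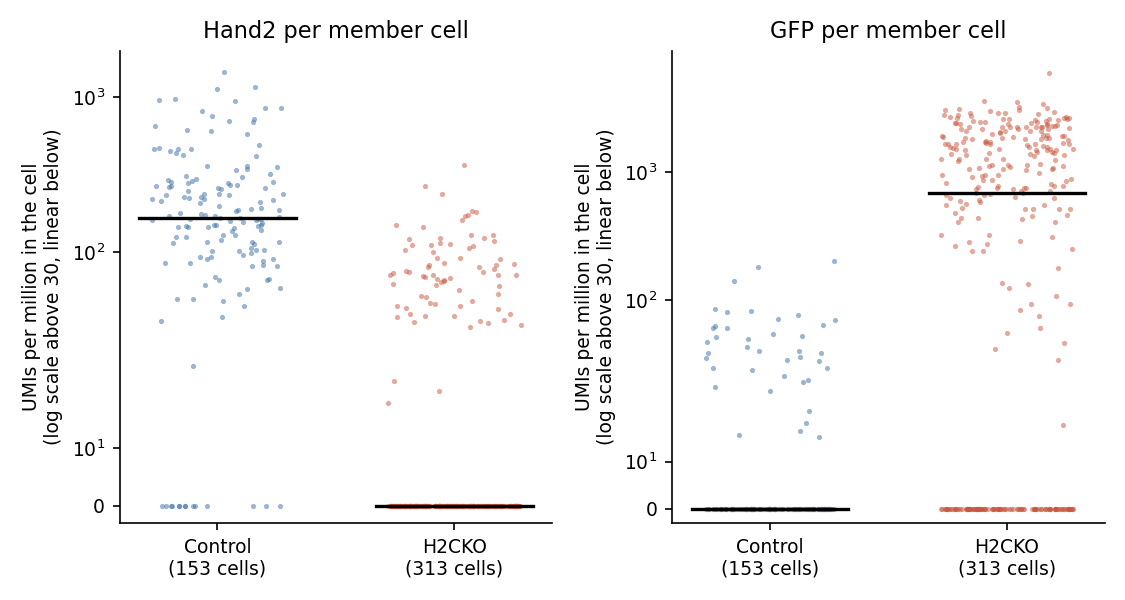
Hand2 (left) and GFP (right) in each member cell, in CPM of that cell (linear below 30, log above), for 153 control and 313 H2CKO cells. Most control cells hold Hand2, with a median of 168 CPM, while the H2CKO median is 0, and GFP reaches high values only in H2CKO.

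Free RNA was gauged in haemoglobin-rich barcodes, where 10.4% of the control's and 5.56% of the H2CKO library's carried Hand2, at median depths of 18902 and 13432.5 UMIs. Their level was 9.13 and 5.998 CPM, so the H2CKO members stood above it. Part of the remaining Hand2 lay in the cells marked by a second type: without them the level was 253 CPM in the control and 20.3 CPM in H2CKO, a log2 ratio of −3.35. Cells of the same endothelial rule with Klf2 at 1000 CPM or more had 244 and 10.1 CPM. Cardiomyocytes, defined here by sarcomere genes at 5% or more of UMIs, held Hand2 at 100.6 CPM (88.5 to 114) in control and 86.6 CPM (72.8 to 102) in H2CKO cells, intervals that overlap. Mesenchyme, defined by its own marker genes, held 151 CPM (147 to 155) in control and 75.85 CPM (70.8 to 81.2) in H2CKO cells, a log2 ratio of −0.95. The assay reads 3′ ends, so transcripts of a deleted allele that keep that end would be counted, and the values do not measure how completely the gene was removed.

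The reporter genes were read next. GFP was 910.7 CPM (885 to 937.5) in H2CKO members, found in 208 of 313 cells (66.5%), against 16.5 CPM (12.6 to 21.2) in the control. Haemoglobin-rich barcodes of H2CKO carried GFP in 6.02%, at 14.4 CPM. The control has no Cre by its label, and its 60 GFP UMIs in 40 members have a source that was not tested. Tomato stood at 20.35 CPM (15.98 to 25.55) in control members but 3.37 CPM (1.96 to 5.397) in those of H2CKO. It was also lower in H2CKO in other classes. Control and H2CKO levels were 24.9 and 4.75 CPM in mesenchyme, 16.6 and 8.79 in cardiomyocytes and 2.25 and 0.742 in haemoglobin-rich barcodes. GFP was found in 27.2% of H2CKO mesenchyme and 16.2% of H2CKO cardiomyocytes. The source of the lower Tomato was not tested.

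Across the transcriptome more genes were lower than higher in H2CKO members. Of 6680 genes with at least 20 CPM and 20 UMIs in the higher library, 478 (7.16%) were at least 2-fold lower and 67 (1.00%) at least 2-fold higher. Over all tested genes the log2 ratio had a median of −0.25. When ratios were centred on that median, 221 genes were lower and 156 higher, so the higher genes' share of all calls was 41.4% in place of 12.3%. Without the cells marked by a second type the counts were 569 (8.65%) lower and 111 (1.69%) higher of 6577 genes, 314 and 50 of them shared with the first count, and the median was −0.26.

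**Figure D2:**
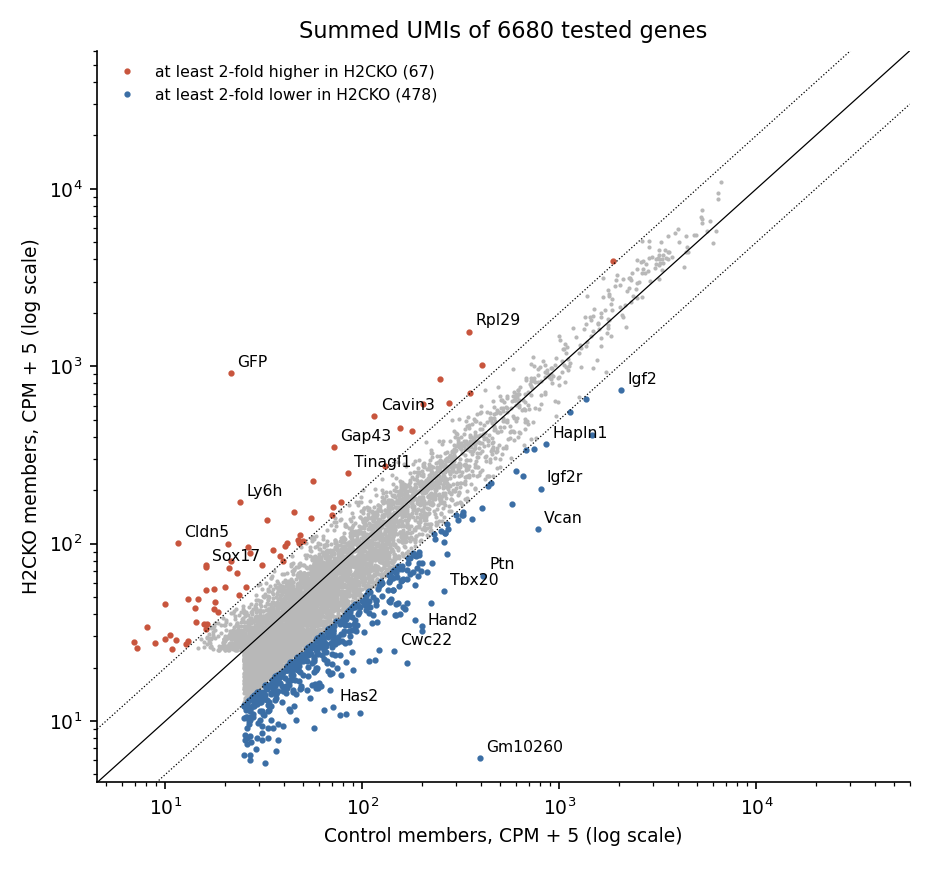
CPM plus 5 of each of the 6680 tested genes in control members (horizontal, log scale) and H2CKO members (vertical, log scale), with genes at least 2-fold apart coloured. The coloured points are 478 lower and 67 higher genes, with matrix genes such as Vcan below the diagonal and Cldn5, Ly6h and Gap43 above it.

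Some of the largest ratios were as large in cells of another kind. Among the 10 lowest and 10 highest genes, the predicted gene Gm10260 had a log2 ratio of −5.995 in members and −5.60 in cardiomyocytes, the splicing factor gene Cwc22 had −2.55 and −2.58, and the ribosomal protein gene Rpl29 had 2.17 and 1.74. Gm10260, Tpm3-rs7 and Rpl29 have near-identical copies in the genome, and how reads were split among them is uncertain. Long genes also tended to be lower: across 6676 genes, which are not independent replicates, Spearman's rho between log2 ratio and gene span was −0.452 in members and −0.379 in cardiomyocytes. When each gene's cardiomyocyte ratio was subtracted, 180 of the 478 lower and 53 of the 67 higher genes were still at least 2-fold away. But 305 of the 478 lower and 20 of the 67 higher genes passed the filter on low values in cardiomyocytes. A gene barely detected there has a ratio near 0 from the added 5 CPM, so the subtraction says nothing of it. The part of library-wide differences in the single ratios below was not tested beyond these cardiomyocyte values.

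The cushion matrix was the gene list with the most lower genes. Of its 22 tested genes, 16 were at least 2-fold lower and none higher, with a median log2 ratio of −1.72 beside −0.25 for all tested genes and a background of 7.16% lower. Its median was −1.35 in Klf2-high endothelial cells. Without the cells marked by a second type, 10 of 17 tested genes were lower, beside 8.65% of all genes, and the median was −1.60. After subtracting each gene's cardiomyocyte ratio the median was −1.15, and with cardiomyocytes taken at 2% or more sarcomere UMIs it was −0.59, although 8 of the 22 genes passed the filter in the first of these classes. The list was chosen with earlier results of these data known.

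Versican and hyaluronan are the core of cardiac jelly. Vcan, the versican gene (chromosome 13, 89655312 to 89742509, minus strand), was 769 CPM (741 to 798) in control members and 116 CPM (107 to 126) in H2CKO members, a log2 ratio of −2.68. Has2, the main hyaluronan synthase of the cushions, was 65.7 CPM (57.7 to 74.6) and 6.94 CPM (4.83 to 9.65), for a log2 ratio of −2.57. Hapln1, which links hyaluronan to versican, was 850.3 CPM (820.6 to 881) and 358 CPM (341 to 375), for a log2 ratio of −1.24 that became 0.01 after subtracting the ratio in cardiomyocytes taken at 2% sarcomere UMIs. None of these intervals overlap between libraries, but they cover counting error only. How many of all tested genes had intervals that do not overlap was not counted. Hapln1 was detected in all control members, at 64.6 to 3826 CPM with a median of 841, and in H2CKO the median was 291.5 and the highest cell 2394, so single cells of the libraries overlapped.

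These levels shifted with the marked cells to differing degrees. Without them Vcan was 283 and 63.2 CPM (log2 ratio −2.08), Has2 60.1 and 6.13 CPM (−2.55) and Hapln1 952 and 370 CPM (−1.35). Of the 2796 Vcan UMIs in control members, 438 lay in cells without a second type's markers. Cardiomyocytes at 5% or more sarcomere UMIs held little Has2 or Hapln1, at 5.25 and 2.43 CPM in the control, and their Vcan ratio was −0.57. Whether the looser class at 2% also held cells of other types was not tested.

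Among the 16 lower genes were also fibrous and matricellular ones. Fbln2, an elastic-fibre fibulin, was 195 CPM (181 to 210) in control and 29.35 CPM (24.8 to 34.5) in H2CKO members, and Eln, which encodes elastin, 72.3 CPM (63.9 to 81.6) and 5.75 CPM (3.85 to 8.26). Spon1, encoding a secreted adhesion protein, was 103 CPM (92.7 to 114) and 16.7 CPM (13.3 to 20.6), and Postn, the periostin gene of valve mesenchyme, 162.5 CPM (149.7 to 176) and 41.4 CPM (36.01 to 47.5). Their log2 ratios were −2.54, −2.85, −2.32 and −1.85, and without the marked cells −2.09, −2.68, −2.71 and −2.03. Col26a1, a little-studied collagen gene with no UMI in the cardiomyocytes of either library, was 51.7 and 4.16 CPM (−2.63), and −3.35 without the marked cells.

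The fibrillar collagens depended more on which cells were counted. Col3a1 was 571 CPM (546 to 596) and 161 CPM (150.3 to 173), for a log2 ratio of −1.79, which was −1.93 without the marked cells and 0.04 after subtracting cardiomyocytes taken at 2%. Col1a1, a collagen of established mesenchyme, was 88.0 and 27.2 CPM (−1.53), but had 3 and 11 UMIs without the marked cells, where the ratio was 0.15, and it was 0.09 after subtracting cardiomyocytes taken at 2% sarcomere UMIs. Col1a2, Col9a3, Tnc, Papss2 and Dcn were likewise past 2-fold over all members and not without those cells. Sparc, which encodes a collagen-binding glycoprotein, was the 1 tested list gene with a ratio above 0, at 857 and 904 CPM (0.08), and at 496 and 843 CPM (0.76) without the marked cells. Fbn1, Fbln1, Emilin1, Col5a2 and Bgn had ratios from −0.62 to −0.15.

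**Figure D3:**
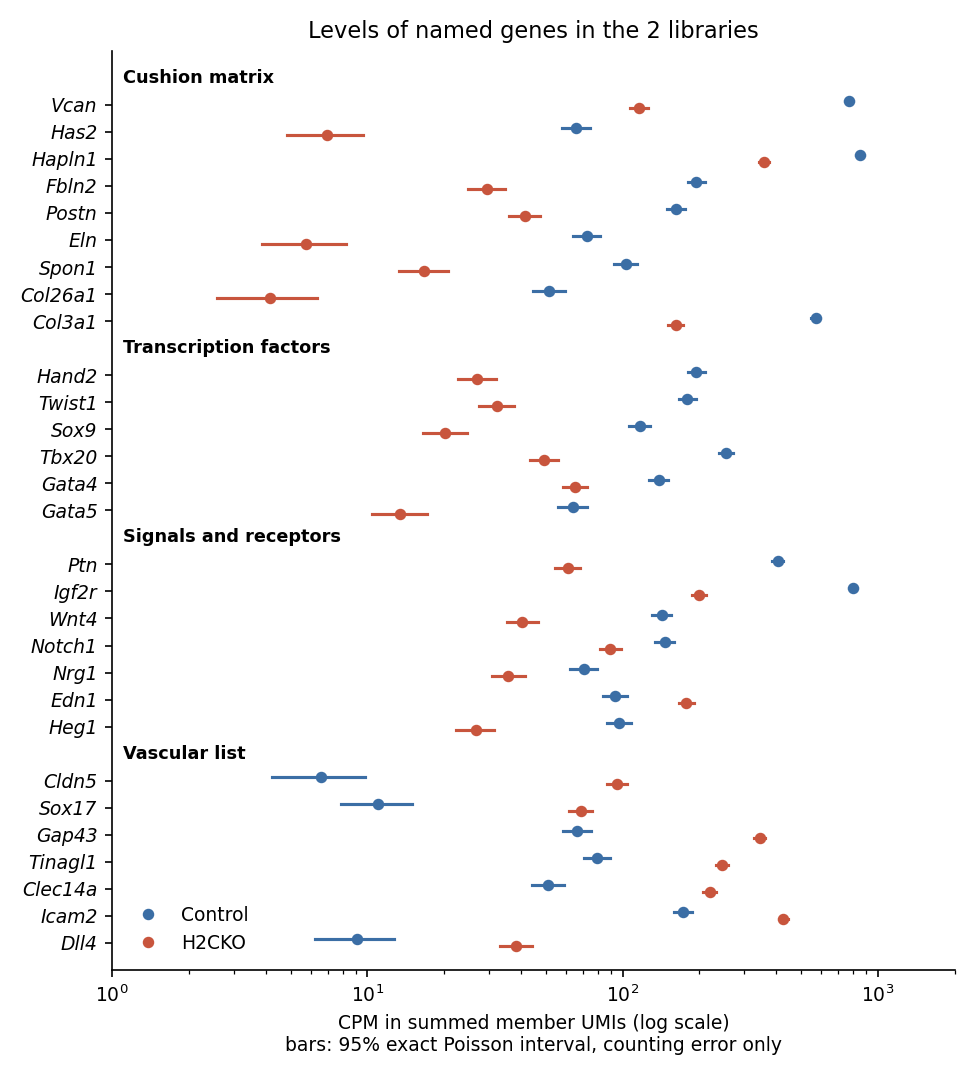
Level of named genes in CPM of summed UMIs (log scale) in control (blue) and H2CKO (red) members, with 95% exact Poisson intervals that cover counting error only. Has2 lies at 65.7 against 6.94 CPM and Vcan at 769 against 116, while Cldn5 lies at 6.60 against 95.2 CPM.

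Per cell, the 26 cushion matrix genes together took a median of 4284 CPM of each cell in control members (1554 to 12333) and 2044 in H2CKO members (463 to 9633). Only 23 of 313 H2CKO cells (7.35%) lay above the control median, and 70 lay below every control cell. The medians were 3582 and 2035 CPM without the marked cells, and of 281 H2CKO cells 23 (8.19%) lay above the control median and 63 below every control cell.

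Of 11 tested transcription factors of the cushion transition, 6 were at least 2-fold lower and none higher, with a median log2 ratio of −1.03, beside 7.16% lower over all genes. Without the marked cells 2 of 8, Sox9 and Msx1, were lower, beside 8.65%, and the median was −0.62. Sox9, a factor of cushion mesenchyme, was 117 CPM (106 to 128) in control and 20.2 CPM (16.5 to 24.55) in H2CKO members (−2.27), and 20.03 and 5.64 CPM (−1.24, from 31 and 23 UMIs) without them. Twist1, another, was 179 CPM (166 to 194) and 32.1 CPM (27.4 to 37.5) (−2.31), and −0.65 without them. Both genes are among the 12 mesenchymal markers, so leaving out the marked cells lowers them by construction.

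Snai1 and Snai2, which encode repressors of cell adhesion genes at the start of the transition, were low. Snai1 had 47 and 27 UMIs, under the 20 CPM required. Snai2 was 26.4 CPM (21.4 to 32.2) and 5.95 CPM (4.01 to 8.49), but 7 and 23 UMIs without the marked cells gave a ratio of 0.16. Msx1, a cushion homeobox gene, was 33.8 and 13.1 CPM (−1.10) and −1.05 without them. Prrx2 and Lef1 were the other lower factors, at −1.03 and −2.42, but without the marked cells both were under the level required. Zeb1, Zeb2, Sox4 and Sox11 were within 2-fold in both settings.

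Among 24 tested endocardial and endothelial factors, 5 were at least 2-fold lower and 1 was higher, beside 7.16% and 1.00% of all genes, and the median was −0.27 beside −0.25. The lower ones were the cardiac factors Gata4, Gata5 and Tbx20 and the forkhead and Iroquois genes Foxc1 and Irx6. Tbx20, a T-box factor of endocardium and myocardium, was 254 CPM (238 to 271) and 49.2 CPM (43.2 to 55.7), for a log2 ratio of −2.26, against −0.81 in cardiomyocytes. Gata5, an endocardial GATA factor, was 63.8 CPM (55.85 to 72.6) and 13.5 CPM (10.5 to 17.1), for a log2 ratio of −1.90, against 0.05 in cardiomyocytes. Gata4 was 138 CPM (126.5 to 151) and 65.2 CPM (58.4 to 72.7), for a log2 ratio of −1.03 that was −0.92 without the marked cells. Both Tbx20 and Gata5 were past 2-fold without them, at −2.06 and −2.31. In that setting 5 of 24 were lower and 2 higher, beside 8.65% and 1.69% of all genes, with Foxc2 (−1.24) and Mef2c (1.09) past 2-fold there and not over all members. The general endothelial factors Erg, Fli1, Ets1, Sox7 and Sox18 ranged from −0.26 to 0.96.

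Sox17, a factor of arterial endothelium, went the other way. It was 11 CPM (7.86 to 14.98) in control and 68.4 CPM (61.4 to 76.02) in H2CKO members, a log2 ratio of 2.20, and it had no UMI in the cardiomyocytes of either library.

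Ptn (chromosome 6, 36714929 to 36810220, minus strand), which encodes the heparin-binding cytokine pleiotrophin, was 405 CPM (384 to 426) in control and 60.9 CPM (54.25 to 68.1) in H2CKO members. Its log2 ratio was −2.64 in all members, −3.67 without the marked cells and −1.16 in cardiomyocytes. The related midkine gene Mdk was 1365 and 652 CPM (−1.06), against −0.70 in cardiomyocytes. In the pleiotrophin and heparan list the median was −1.06 (−0.70 after subtracting cardiomyocyte ratios) and 5 of 9 tested genes were at least 2-fold lower, beside 7.16% of all genes. Of 5 tested without the marked cells, Ptn and Mdk were lower, beside 8.65%. A median H2CKO cell had no Ptn UMI, and in the control the median was 199 CPM.

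In the insulin-like growth factor list 2 of 14 tested genes were lower and 2 higher, and 2 and 2 of 13 without the marked cells. Of all genes 7.16% were lower and 1.00% higher, and 8.65% and 1.69% without those cells. Igf2r, the receptor that clears IGF2, was 797 CPM (768.5 to 827) and 199 CPM (187 to 212), for a log2 ratio of −1.975 that was −2.17 without the marked cells and −0.87 in cardiomyocytes. Igf2 was 2042 and 730.1 CPM (−1.48), but its ratio was as low in cardiomyocytes (−1.57) and mesenchyme (−1.43). Igfbp3, encoding an IGF carrier, was 11 CPM (7.86 to 14.98) and 70.8 CPM (63.6 to 78.5), for a log2 ratio of 2.24, and Igfbp2, another, was 42.6 and 96.2 CPM (1.09).

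BMP and TGF-beta signalling drives the cushion transition. Of its 19 tested genes 5 were lower and none higher, beside 7.16% and 1.00% over all genes, and the median was −0.82. Without the marked cells 5 of 17 were lower, 1 was higher and the median was −0.35, beside 8.65% and 1.69% of all genes. The higher one was the ligand gene Bmp6, at 1.32 from 8 and 83 UMIs, and the receptor genes Acvr1 (−1.01) and Tgfbr3 (−1.63) were lower there and not over all members. Bmpr1a and Bmpr2, the type I and type II BMP receptors, were 83.3 and 33.3 CPM (−1.21) and 133 and 61.1 CPM (−1.06). Bmpr2 was −0.86 in cardiomyocytes, close to its value here, while Bmpr1a was −0.37 there. Ltbp1, which anchors latent TGF-beta in the matrix, was 146 CPM (134 to 159) and 41.05 CPM (35.6 to 47.03), −1.71 in all members and −1.66 without the marked cells. Tgfb2 was 113 and 65.2 CPM (−0.75), and −0.01 without them.

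Notch signalling showed no single direction. Notch1, the main endocardial receptor, was 147 CPM (134 to 160) and 89.6 CPM (81.55 to 98.3), for a log2 ratio of −0.68 that did not reach 2-fold. The ligand gene Jag1 was 35.75 and 10.7 CPM (−1.38), but it was −1.59 in cardiomyocytes. Dll4, the ligand of arterial and sprouting endothelium, was 9.08 CPM (6.25 to 12.7) and 38.3 CPM (33.1 to 44.07), for a log2 ratio of 1.62. Of the target genes, Hey2 was 61.6 and 14.1 CPM (−1.80), Hey1 35.75 and 19.2 CPM (−0.75, but −1.16 and past 2-fold without the marked cells) and Hes1 111 and 198 CPM (0.81), the last with 0.89 in cardiomyocytes. Notch2 was 20.35 and 2.78 CPM (−1.71), from 74 and 14 UMIs. In all, 3 of 10 tested Notch genes were lower and 1 higher, beside 7.16% and 1.00% of all genes, with a median of −0.65 beside −0.25. The counts were 3 and 1 of 9 without the marked cells, beside 8.65% and 1.69%, and the median −0.64, Notch2 being under the level required there.

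Signals from endocardium to trabecular muscle were mixed too, with 2 of 10 tested genes lower and 1 higher, or 4 lower and 1 higher without the marked cells. The shares of all genes were 7.16% and 1.00%, and 8.65% and 1.69% without those cells. The receptor gene Tek and the ephrin gene Efnb2 joined the lower ones there, at −1.03 and −1.06. Nrg1, the neuregulin ligand, was 70.4 CPM (62.04 to 79.6) and 35.7 CPM (30.7 to 41.3), for a log2 ratio of −0.89, short of 2-fold. Wnt4 was 142.5 CPM (130.4 to 155) and 40.45 CPM (35.1 to 46.4), for a log2 ratio of −1.70, and −1.28 without the marked cells. Edn1, the endothelin-1 gene, was 93.5 and 178 CPM (0.89), also short of 2-fold, while Ece1, whose enzyme activates endothelin, was lower at 268 and 116 CPM (−1.18).

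The flow-response list had a median of −0.14 over 16 tested genes, with 3 lower and 1 higher. The median lay near the −0.25 of all genes, while 7.16% of all genes were lower and 1.00% higher. Without the marked cells 4 of 16 were lower and 2 higher, as Tmem100 (−1.39) and the matricellular gene Ccn2 (1.40) passed 2-fold, beside 8.65% and 1.69% of all genes in that setting. The flow-induced relative Klf4 was 124 CPM (113 to 136) and 36.1 CPM (31.04 to 41.7), for a log2 ratio of −1.65. Heg1, a receptor that anchors the CCM complex, was 97.1 CPM (87.2 to 108) and 26.6 CPM (22.3 to 31.5), for a log2 ratio of −1.69, and Aqp1, a water channel gene, was 53.35 and 14.3 CPM (−1.60). Their ratios were −1.22, −1.68 and −1.27 without the marked cells. The CCM partners Krit1, Ccm2 and Pdcd10 stayed within 2-fold. Klf2, used in the choice, was 472 and 325 CPM, and the threshold kept it below 1000 CPM in each cell.

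The vascular and coronary list stood on the other side. Of 19 tested genes 11 were at least 2-fold higher, 1 was lower and the median was 1.28, against 1.00% higher and a median of −0.25 over all tested genes. The list's median was 0.51 in Klf2-high endothelial cells and 0.97 in members without a second type's markers, with 10 of 20 tested genes higher in the latter, beside 1.69% of all genes. Only 4 of the 19 genes passed the filter in cardiomyocytes, so that class bears little on the list. This list too was chosen with earlier results of these data known, so its counts and per-cell sums are a description.

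Cldn5 (chromosome 16, 18776847 to 18778262, plus strand), which encodes a tight-junction claudin of vessels, had the highest ratio of the named genes other than GFP. It was 6.60 CPM (4.23 to 9.82) from 24 UMIs in control members and 95.2 CPM (86.9 to 104) from 480 UMIs in H2CKO members, a log2 ratio of 3.11, or 2.52 without the marked cells. Cardiomyocytes held no Cldn5 UMI in either library, at median depths of 18919 and 12440 UMIs. After thinning to 5000 UMIs per cell, 4.58% of control and 32.1% of H2CKO members had a Cldn5 UMI.

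Other genes of the list were higher in the same way. Gap43, known from growth cones, was 66.55 CPM (58.4 to 75.5) and 344 CPM (328 to 360), for a log2 ratio of 2.29 (2.49 without the marked cells). Tinagl1, a matrix gene of vessels, was 79.2 CPM (70.3 to 88.9) and 245 CPM (232 to 259), for a log2 ratio of 1.57, and Clec14a, encoding an endothelial lectin, was 51.15 CPM (44.06 to 59.05) and 219.5 CPM (207 to 233), for a log2 ratio of 1.999. Icam2, an endothelial adhesion gene, was 173 and 426 CPM (1.28), and 0.70 without the marked cells, under 2-fold. Fabp4, a fatty-acid carrier gene of capillaries, rested on 11 and 145 UMIs (2.07). Flrt2 and Slc6a6 were the remaining higher genes, at 1.39 and 1.15.

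Not every vascular gene followed. Car4, a carbonic anhydrase gene, was 67.1 and 22.01 CPM (−1.42). Plvap, Vwf, Gja4, Cd34 and Fabp5, all well detected, had ratios between −0.39 and 0.39. Outside the list, Ly6h, a Ly6-family gene, was 18.98 CPM (14.8 to 24.01) and 167 CPM (156 to 179), for a log2 ratio of 2.84, and the caveolar genes Cav1 and Cavin3 were 15.7 and 94.6 CPM (2.27) and 110.0 and 519.5 CPM (2.19). Cav1 had a ratio of −2.25 in cardiomyocytes, opposite in sign. Emcn, used in the choice, was 197 and 606 CPM.

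Per cell, the 25 vascular genes took a median of 2748 CPM of each cell in control members (454 to 12301) and 3696 in H2CKO members (712 to 10936). Of the 313 H2CKO cells 253 (80.8%) lay above the control median, yet none lay outside the control range. The medians were 3093 and 3801 CPM without the marked cells, with 210 of 281 H2CKO cells (74.7%) above the control median.

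**Figure D4:**
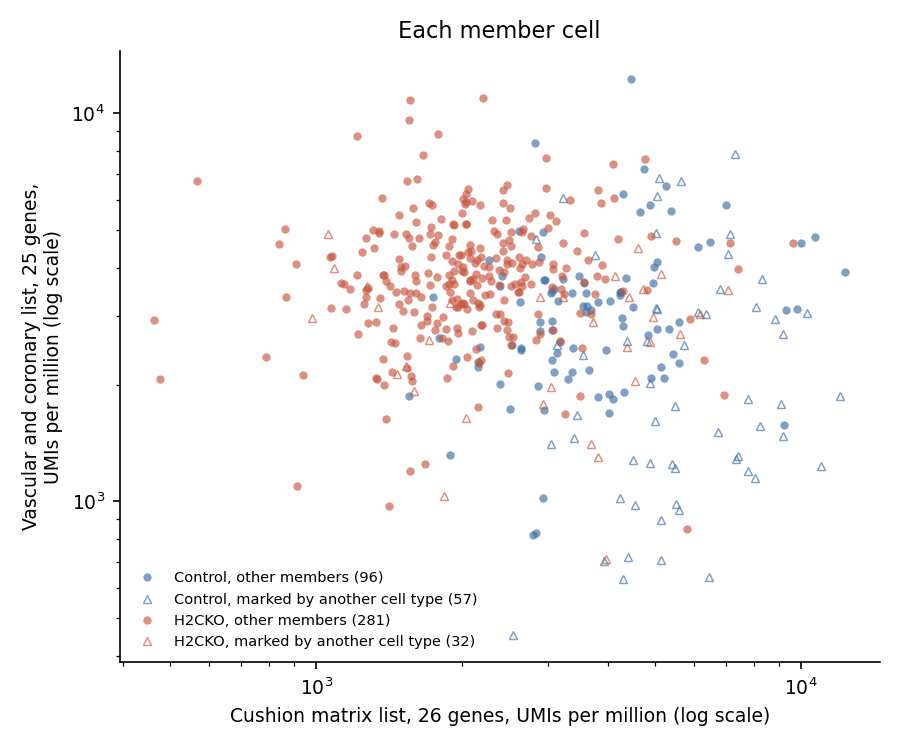
CPM per cell of the 26 cushion matrix genes (horizontal, log scale) and the 25 vascular and coronary genes (vertical, log scale) in each of 153 control and 313 H2CKO members, those with a second type's markers included. H2CKO cells lie to the left, with medians of 2044 against 4284, and higher, with medians of 3696 against 2748, and the 2 clouds overlap.

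Basement membrane genes and integrins were all below 0 on the log2 scale, with 5 of 18 tested at least 2-fold lower and a median of −0.80, beside 7.16% and −0.25 for all genes. Without the marked cells 8 of 17 were lower and the median was −0.99, beside 8.65% and −0.26. Mesenchyme had a similar median of −0.69 and cardiomyocytes −0.17, and after subtracting the latter the median was −0.48, or −0.21 with cardiomyocytes taken at 2%. Fn1, the fibronectin gene, was 1721 and 916 CPM (−0.91), against 0.13 in cardiomyocytes, and was −1.28 without the marked cells. Nid1, which encodes the basement membrane linker nidogen, was 181 and 81.5 CPM (−1.10), and the integrin genes Itga4, Itga9 and Itgav were −1.81, −1.17 and −1.21.

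The shares of all genes to set beside the next counts are 7.16% lower and 1.00% higher over all members, and 8.65% and 1.69% without the marked cells. In the junction list 5 of 15 tested genes were lower, among them Ptprb, the endothelial phosphatase gene, at 194 and 65.04 CPM (−1.51), and Cgnl1, encoding a junction scaffold, at 262 and 123.5 CPM (−1.06). Ptprb was −0.99 without the marked cells, where 3 of 14 were lower. Of 15 tested guidance genes 6 were lower and 1 higher, or 4 and 1 of 11 without those cells, and Epha7, an ephrin receptor gene, was 47.3 and 9.91 CPM (−1.81). The retinoic acid and Wnt list had 6 of 10 lower, of which Aldh1a2, Cyp26b1 and Lef1 had fewer than 20 CPM or UMIs in both libraries once the marked cells were left out, and Sfrp1 went from −1.0 to 1.01. The PDGF and smooth muscle list had 3 of 6 lower with a median of −1.09, against 1 lower and 1 higher of 5 and a median of 0.54 without those cells. The higher one was the smooth muscle actin gene Acta2, at −0.84 in all members and 1.45 without the marked cells.

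The VEGF list had a median of 0.01 over 8 genes, 1 of them lower, with Kdr at 136 and 237.5 CPM (0.78, and 0.02 without the marked cells). No gene of the 6 tested in the angiopoietin, apelin and adrenomedullin list or of the 6 in the calcineurin list was past 2-fold, with medians of −0.60 and −0.79, and 1 gene of each list was lower without the marked cells. In the natriuretic list Prkg1, the cyclic GMP kinase gene, was 30.25 and 4.16 CPM (−1.94) and Corin, whose protease activates the natriuretic peptides, was 33.8 and 7.73 CPM (−1.61). The list's median was −0.04 over 5 genes, and without the marked cells 0.56, where the peptide genes Nppa and Nppb were higher at 1.77 and 1.35 in place of 0.45 and −0.03. The 10 cardiomyocyte markers, all detected, summed to 1517 CPM in the control and 3111 CPM in H2CKO in the same cells, against 5506 and 3939 CPM over all members. Single cells without a second type's markers ranged from 222 to 18634 and from 204 to 25148 CPM of these. The part of cardiomyocyte transcripts in the peptide genes' values was not tested. None of 18 S phase or 18 G2/M genes was past 2-fold, with medians of −0.13 and 0.17, and the S phase gene Dtl alone was lower (−1.03) without the marked cells. Of 12 immediate-early genes 1, Fosb, was lower (−1.95) and the median was −0.07. Without the marked cells the median was 0.26, and Egr1, Ier2 and Zfp36 were higher at 1.002, 1.02 and 1.42 in place of −0.44, 0.93 and 0.70. In the glycolysis and hypoxia list 2 of 18 tested genes, Bnip3 and Vegfa, were lower (−1.33 and −1.44) but within 2-fold without the marked cells, where the list's median was 0.37 in place of −0.35.

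Among the 10 lowest genes, Ccl2 and Pf4 call for their counts. The chemokine gene Ccl2 was 77.0 CPM (68.2 to 86.6) and 5.95 CPM (4.01 to 8.49), for a log2 ratio of −2.90 in all members and also without the marked cells. Pf4, a megakaryocyte gene, had 591 and 82 UMIs (−2.98), but 1 control cell reached 14039 CPM, and without the marked cells 3 and 14 UMIs remained.

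Members were also split by the 2 genes of the choice into cells with Npr3 only, Nfatc1 only or both. Control members were 21, 35 and 97 in this order, and H2CKO members 117, 77 and 119, numbers that follow from the choice and its UMI counts and are given as a description. Hand2 was lower in each: 183 and 16.9 CPM with Npr3 only, 257 and 39.98 CPM with Nfatc1 only, and 174 and 27.1 CPM with both. Ptn and Igf2r followed the same order of libraries, with log2 ratios of −3.33, −1.97 and −2.78 for Ptn and −1.98, −1.78 and −1.975 for Igf2r. Vcan was 56.98 CPM in the control and 54.5 CPM in H2CKO with Npr3 only (−0.06), 1279 and 179 CPM with Nfatc1 only (−2.81) and 684 and 125 CPM with both (−2.41). Has2 was at −2.26 with Nfatc1 only and −2.95 with both, while with Npr3 only 1 and 6 UMIs were too few to compare. Tbx20 was −0.50 with Npr3 only and −2.21 with Nfatc1 only. Twist1 was −0.39 with Npr3 only, −3.10 with Nfatc1 only and −1.96 with both, and Nrg1 was −1.02, −2.77 and −0.16. Sox9 was 0.82, −2.20 and −2.205 in the same order, and Col26a1 −3.88, −0.25 and −2.88, some from few UMIs. The part of the mix of these sets in the summed values of these genes and of Vcan, Has2 and Tbx20 was not tested. Cldn5, Gap43, Sox17 and Tinagl1 were at least 2-fold higher in H2CKO in all 3 sets, and differences between sets were not tested, with 21 control cells in the smallest.

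Within H2CKO, 208 members had a GFP UMI and 105 had none, at median depths of 14370.5 and 10651 UMIs, so the GFP-positive set was also the deeper one. With each cell thinned to equal depth, as for Hand2 above, 200 of 312 H2CKO members (64.1%) had a GFP UMI, against 66.5% without thinning. Hand2 was 26.5 CPM (21.5 to 32.3) in GFP-positive and 28.3 CPM (20.1 to 38.7) in GFP-negative members, a log2 ratio of −0.08. Both stood far below the control's 195 CPM. Of 5838 tested genes 38 (0.651%) were at least 2-fold higher and 5 (0.0856%) at least 2-fold lower in GFP-positive members. Wnt4 was 51.6 and 10.9 CPM in positive and negative cells (1.83), Car4 28.65 and 4.35 CPM (1.85) and Ptn 71.8 and 31.9 CPM (1.06). The sarcomere gene Myl7, capped by the choice, was 1164 CPM in positive and 438 CPM in negative cells. Cldn5, Gap43, Sox17, Igf2r and Has2 were within a log2 ratio of 0.15 of each other in the 2 sets, and all 5 differed from the control in the same direction in both.

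Klf2-high endothelial cells, 176 in the control and 184 in H2CKO, come from the same 2 libraries and share the endothelial rule. Of 6633 genes tested in them, 295 (4.45%) were at least 2-fold lower and 59 (0.889%) at least 2-fold higher in H2CKO. Among members' genes with near values there, Fbln2 was −2.55 in Klf2-high cells and −2.54 in members, Heg1 −1.64 and −1.69, and Igf2r −2.15 and −1.975. Other genes were farther apart. Sox17 was 0.44 there against 2.20 in members, Tinagl1 0.68 against 1.57, Gap43 0.67 against 2.29, Wnt4 −0.56 against −1.70 and Aqp1 −0.20 against −1.60. Hand2 was −4.04 against −2.64, and Car4 had opposite signs, 0.33 against −1.42. With 1 library per genotype none of these differences was tested.

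**Figure D5:**
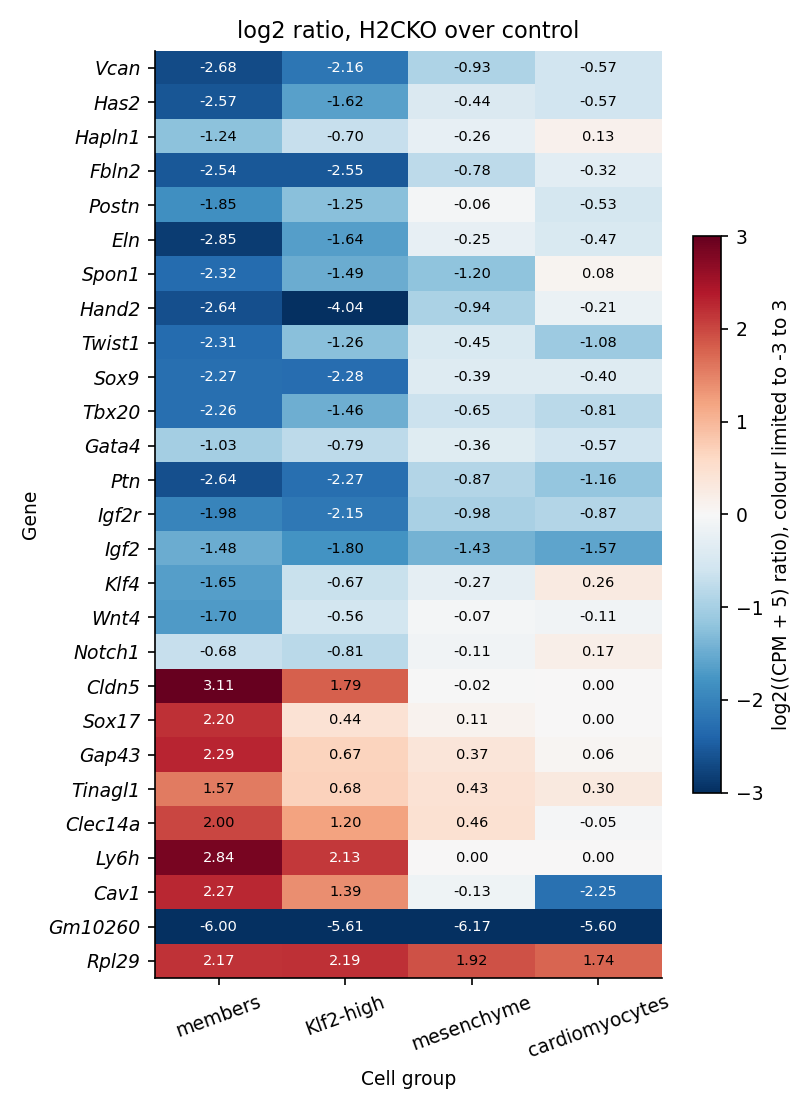
Log2 ratio of H2CKO over control, after adding 5 CPM to both, for 27 genes (rows) in members, Klf2-high endothelial cells, mesenchyme and cardiomyocytes (columns), with colour limited to −3 to 3. Vcan, Ptn and Cldn5 are at −2.68, −2.64 and 3.11 in members, while Gm10260 and Rpl29 are far from 0 in all 4 groups, and a value near 0 can also mean a gene barely detected, as for Cldn5 in cardiomyocytes.

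How the group's share of its surroundings differed depended on the denominator. Members were 44.6% (39.3 to 50.0) of all endothelial cells of the rule in the control and 50.2% (46.2 to 54.2) in H2CKO. These intervals overlap. Endothelial cells of the rule, at any Klf2 level, were themselves 6.34% of listed control cells and 10.0% of listed H2CKO cells. Klf2-low endothelial cells with Npr3 or Nfatc1 were 153 of 167 Klf2-low endothelial cells in the control (91.6%, 86.3 to 95.3) and 313 of 439 in H2CKO (71.3%, 66.8 to 75.5). These shares rest only on detection of Npr3 or Nfatc1, genes of the choice. They are given as a description, without reading a difference from them. The cells left over, with neither gene, were 14 in the control and 126 in H2CKO, too few in the control for gene values to be compared. Median depth was lower in H2CKO as well, and its part in the shares of Klf2-low endothelial cells was not tested. For shares of listed cells, members were 2.83% of control and 4.92% of H2CKO cells at an equal minimum of genes, 1.44% and 2.51% when each cell was first thinned to 5000 UMIs, and 3.08% and 7.62% among cells with at most 5% mitochondrial UMIs. The H2CKO share was the higher one under each of these.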

How the data were processed

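Whole hearts at E11.5 were measured by single-cell RNA sequencing, 1 library per genotype. The authors deposited raw UMI counts per barcode and gene, per the file headers with Ensembl IDs, and for a subset of barcodes 2 embedding coordinates, a score without unit that the authors deposited and that served only to mark listed cells. The submitters' processing notes name Cell Ranger 5.0.1, Seurat 4 and GRCm38.p6. How each was used, and how listed cells were filtered or doublets treated, is not given in the sources used here; listed cells had at least 2501 genes in the control and 2002 in H2CKO. Of 22401 features, 22285 matched a symbol, and coordinates are from the GENCODE annotation of that build.

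UMIs were summed over member cells per library and divided by all member UMIs (CPM). With 1 library per genotype no test was possible, and no p-value was computed. Intervals are 95% exact (Poisson, Clopper-Pearson, conditional for ratios; scipy 1.17.1) and cover counting error only. The calculation was tested on simulated data. The members, the 23 gene lists and the comparison classes were chosen with earlier results of these data known. Named genes are Hand2, the reporters, the 10 highest and 10 lowest ratios (leaving out the selection genes, reporters, Hand2, haemoglobin, mitochondrial and Y-linked genes, Xist and Tsix), list genes past 2-fold, the list genes with the highest control level that were not, and a fixed set of endocardial genes. Cardiomyocytes had sarcomere genes at 5% or more of UMIs and at most 1 of 6 endothelial genes. Mesenchyme had at least 4 of 8 mesenchymal genes. Haemoglobin-rich barcodes had 20% or more haemoglobin UMIs. Alternatives covered the pseudocount, filters, scaling, thinning to 5000 UMIs, Scrublet scores (scanpy 1.11.5, highest 5% left out) and the selection thresholds. Leaving out members marked by another cell type, and subtracting the ratio in cardiomyocytes taken at 2% sarcomere UMIs, were chosen after seeing the data.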

Additional observations from a re-analysis of the deposited data

How the results depend on the processing

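No paired analysis was possible because each genotype has 1 library, which leaves no pairs to compare. The number of genes at least 2-fold higher (67) was 40 with a pseudocount of 20 CPM, 24 with a filter at 100 CPM, 156 after centring on the median gene, 111 after thinning, 104 without the highest doublet scores, 109 with Klf2 under 500 CPM, 117 with mitochondrial UMIs at most 5%, 118 after subtracting the cardiomyocyte ratio and 111 without members marked by another cell type. The number at least 2-fold lower (478) was 159, 121 and 221 under the first 3 of these, 257 after subtracting the cardiomyocyte ratio and 130 with cardiomyocytes taken at 2%. The Hand2 log2 ratio (−2.64) was −2.19 with a pseudocount of 20 CPM, −3.24 with cells weighted equally, −3.21 after thinning, −3.26 without the highest doublet scores, −3.10 with mitochondrial UMIs at most 5%, −3.30 with sarcomere genes under 0.5% and −3.35 without members marked by another cell type. The H2CKO minus control share of listed cells (2.19 percentage points) was 0.704 with Nfatc1 required, 1.07 when cells were chosen after thinning and 4.53 with mitochondrial UMIs at most 5%. The causes were not tested.

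Among genes and lists past 2-fold over all members, signs turned for Pf4 (1.73 with Klf2 under 500 CPM, 0.78 with sarcomere genes under 0.5%, 0.281 without members marked by another type), and without those members for Snai2 (0.159), Prrx2 (0.053), Inhba (0.054), Col1a1 (0.149), Papss2 (0.083), Nid2 (0.07), Cdh2 (0.406), Sfrp1 (1.01) and the PDGF list median (0.544). Of named genes within 2-fold over all members, Acta2 (1.445), Nppb (1.347) and Egr1 (1.002) turned and were past 2-fold higher without those members. After subtracting cardiomyocytes they turned for Cwc22 (0.031), Jag1 (0.216) and Igf2 (0.098), and with cardiomyocytes taken at 2% for Hapln1 (0.014), Gm10260 (0.103), Cwc22 (0.048), Col1a1 (0.094) and Col3a1 (0.044). Of 102 named genes past 2-fold, 38 were past it in all 21 alternatives, among them Vcan, Has2, Ptn, Igf2r, Tbx20, Cldn5, Sox17 and Gap43. That count uses the log2 ratio alone, without the filter on low values. It includes Lef1 and Unc5c, which were under the level required without the marked cells. No alternative took members with Npr3 only, where Vcan was −0.06 and Tbx20 −0.50. The limits are 1 library per genotype, deeper control cells, and intervals that cover counting error only.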

Other observations

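Barcodes outside the authors' embedding also passed the selection: 37 of 8706 in the control, with a median of 28880 UMIs, and 55 of 7653 in H2CKO, with a median of 22980 UMIs. They were not used in any value above.

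Besides contractile genes, the transcripts that varied most among members within both libraries, by variance over mean of thinned counts, included Igfbp5, Car4, Wnt4, Ube2c, Stmn2 and Nts. This ranking was added after the data were seen. Car4, a carbonic anhydrase gene, had a variance of 5.87 times its mean in the control and 8.42 times in H2CKO, and Wnt4 had 6.98 and 5.58 times. Stmn2, which encodes a microtubule regulator, was 180 CPM in control and 53.1 CPM in H2CKO members (log2 ratio −1.67), and Nts, the neurotensin gene, was 88.8 and 40.45 CPM (−1.05). Cdkn1c, which encodes a cell-cycle inhibitor, varied 31.6 times its mean in control members and 12.6 times in H2CKO members at levels of 6039 and 4910.5 CPM.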
